A study of Mus musculus with 6 samples.

Results

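The genes described here are 54 genes of the cell division machinery, chosen by symbol from a list of names and found in full among the 22274 genes of the deposited liver RNA table. They comprise 9 G1 cyclins, kinases and an inhibitor, 5 E2F and pocket protein genes, 14 genes of origin licensing and the replicative helicase, 9 replication fork genes, 3 genes of deoxynucleotide synthesis and 14 genes of G2 and mitosis. All 54 passed the filter on low counts that left 13201 genes for testing, and the lowest count of any of them in any library was 22.

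The samples were livers of C57 mice. In 3 samples (Ad-Dyrk1b) the mice had been infected with an adenovirus that overexpresses mouse Dyrk1b, and in the other 3 (Ad-EGFP) with a control adenovirus named for EGFP, a green fluorescent protein. Both groups carried adenovirus, and the sources used here give neither the promoter and dose of the virus nor the time after infection or the age of the mice. Each library was made from mRNA of liver tissue, and no label ties a library to its own mouse, so each p-value is set against a spread between libraries that may be technical.

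Cells enter the division cycle through the D cyclins, which activate CDK4 and CDK6. These kinases and cyclin E with CDK2 phosphorylate the retinoblastoma family (pocket proteins), which releases the E2F transcription factors that drive the genes of DNA replication. Replication origins are licensed when CDC6 and CDT1 load the MCM helicase ring, which becomes active when CDC45 and the GINS complex join it. Mitotic genes are switched on later, with cyclin B and CDK1 at their head. Most hepatocytes of the adult liver are quiescent and return to the cycle after injury or loss of liver mass. DYRK1B, also called Mirk, is known from cultured cells as a kinase that phosphorylates cyclin D1 and the inhibitor p27 and favours quiescence.

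The total count per library was between 17326516 and 20024888, so that 3 counts stood for 0.150 to 0.173 CPM (a count scaled to the size of its library, here with TMM normalization). Dyrk1b itself (chr7:28179469-28187294, build mm10) had 150.0, 269.9 and 248 CPM in Ad-Dyrk1b livers, against 9.04, 11.1 and 9.61 CPM in Ad-EGFP livers, a rise of 4.49 ± 0.24 on the log2 scale (SE, edgeR, adjusted p = 1.33e-05). The 7 hepatocyte markers summed to 32148, 34990.2 and 39078 FPKM in Ad-Dyrk1b livers, against 41557, 39248 and 40099.9 FPKM in Ad-EGFP livers, and none of the 7 passed the test. Log2 CPM correlated at 0.982 to 0.986 within groups and at 0.960 to 0.970 between them, across genes. One library stood apart from the rest of its group: Ad-Dyrk1b replicate 3 lay at -26.67 on the second principal component, which held 14.25% of the variance, and its erythroid markers were the highest of the 6 libraries. Counts and medians of the roles whose values it moves most are also given without it. Throughout, values are listed for replicates 1, 2 and 3 in that order, a log2 fold change is Ad-Dyrk1b over Ad-EGFP with its standard error, and a gene is called when its edgeR quasi-likelihood p, adjusted by Benjamini-Hochberg over all 13201 genes, is under 0.05.

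Of the 54 genes, 12 fell and 1 rose in Ad-Dyrk1b livers. Genes of licensing, the helicase and the fork made up 9 of the 12 that fell, cyclin D1 fell while cyclin D3 rose, and no mitotic gene was called. The share called lower was 22.2%, beside 4.81% of all tested genes, and the share called higher was 1 of 54, beside 7.36%. In either direction 24.1% were called, beside 12.2%. The log2 fold change was below 0 in 43 of the 54 and in 50.6% of all tested genes, and its median was -0.31, with a range of -0.74 to 0.49. Every Ad-Dyrk1b library lay below every Ad-EGFP library for 21 of the 54 genes (38.9%), beside 16.7% of all tested genes, and above every one for 2 genes, Ccnd3 and Cdk6, beside 16.8% of all tested genes. The 12 genes that fell were Ccnd1, Rb1, Rbl1, Mcm4, Mcm5, Mcm7, Gins1, Gins4, Rfc3, Rfc4, Rfc5 and Pole. The 1 gene that rose was Ccnd3. In whole liver, fewer cells that contain an RNA and less of that RNA per cell cannot be told apart, nor can hepatocytes be told from other cells.

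**Figure D1:**
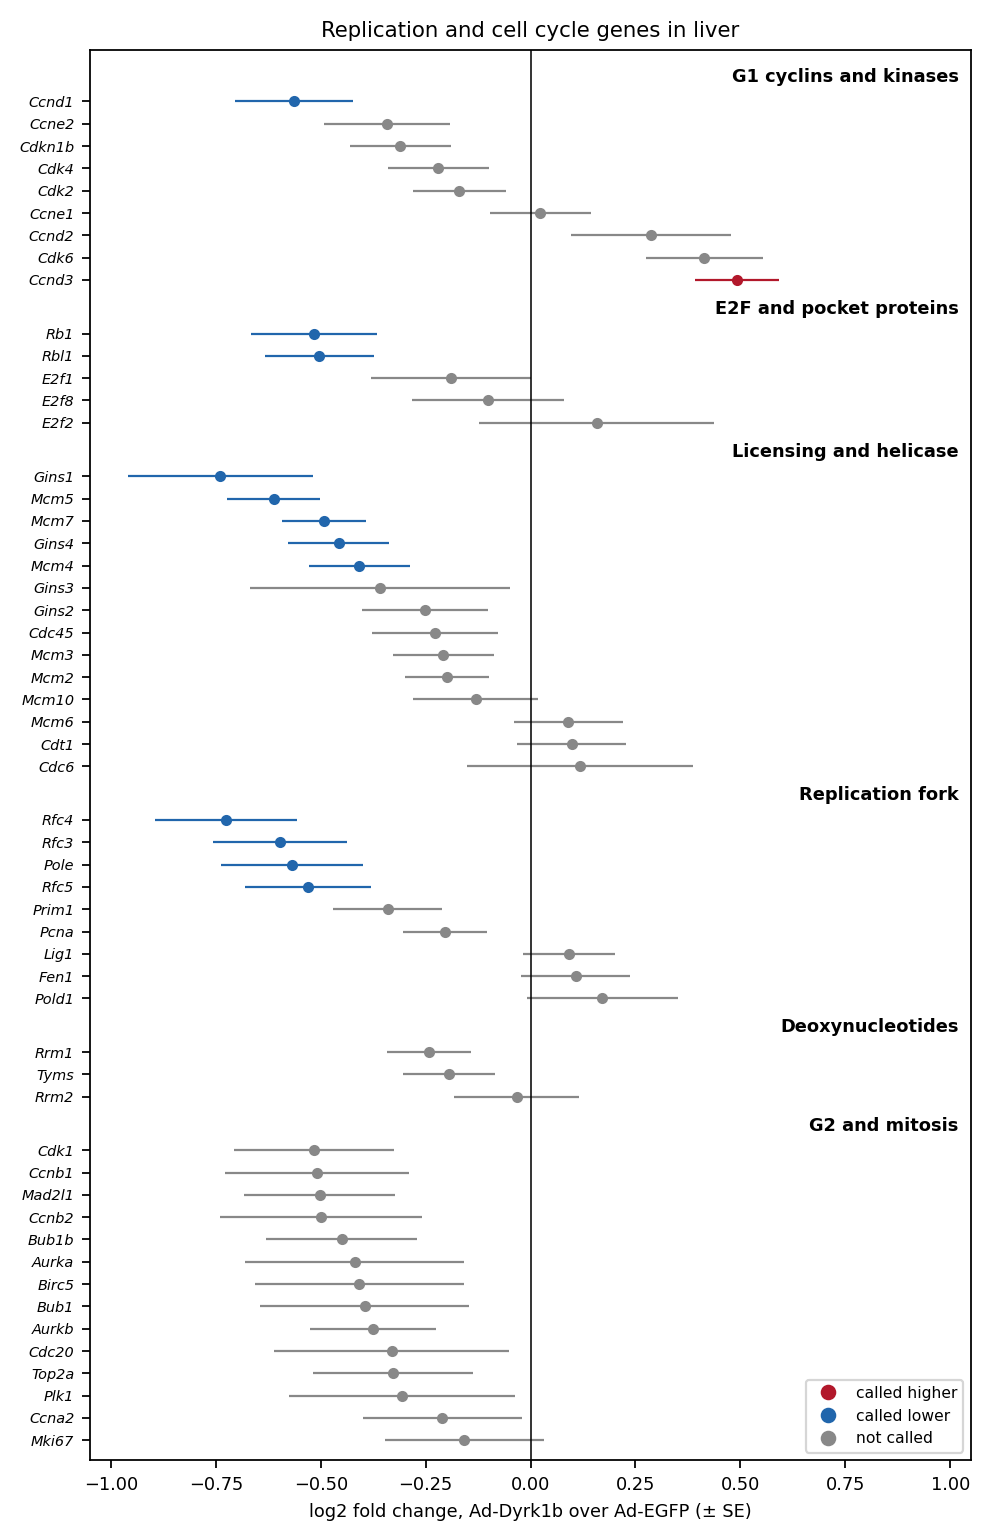
Log2 fold change of each of the 54 genes, Ad-Dyrk1b over Ad-EGFP, with its standard error (bars), grouped by role; red points were called higher, blue points called lower and grey points not called by edgeR. The points lie between -0.74 (Gins1) and 0.49 (Ccnd3), and 43 of the 54 lie below 0.

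The number of calls depended on single libraries. Without 1 library at a time, the number of the 54 genes that fell was 6, 4 and 3 without Ad-Dyrk1b replicates 1, 2 and 3, and 4, 10 and 6 without Ad-EGFP replicates 1, 2 and 3. Calls over the whole table also became fewer, from 635 lower with all libraries. That number was 381, 326 and 396 without Ad-Dyrk1b replicates 1, 2 and 3, and 294, 461 and 414 without Ad-EGFP replicates 1, 2 and 3. Over the same left-out fits the median of the 54 genes was between -0.36 and -0.21. Mcm5, Mcm7 and Ccnd3 were called in all 15 alternative settings that were run.

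Among the G1 genes, cyclin D1 and cyclin D3 changed in opposite directions, and the kinases and cyclins E did not pass the test. Ccnd1 (cyclin D1, chr7:144929931-144939925) had 22.8, 22.1 and 15.9 CPM in Ad-Dyrk1b livers, against 30.3, 27.6 and 31.9 CPM in Ad-EGFP livers. It fell by 0.56 ± 0.14 on the log2 scale (edgeR, adjusted p = 0.0245), and the groups did not overlap. This call needed replicate 3 of Ad-Dyrk1b and replicates 1 and 3 of Ad-EGFP, with adjusted p between 0.0284 and 0.0808 over the 6 left-out fits. Ccnd3 (cyclin D3, chr17:47505051-47599691) had 85.8, 89.1 and 91.4 CPM in Ad-Dyrk1b livers, against 66.1, 58.5 and 64.9 CPM in Ad-EGFP livers. Its log2 fold change was 0.49 ± 0.10 (edgeR, adjusted p = 0.00686), every Ad-Dyrk1b library lay above every Ad-EGFP library, and adjusted p stayed between 0.016 and 0.0255 with 1 library left out. Per length, in the authors' FPKM, cyclin D3 was the more abundant of the pair, at 44.9 ± 2.04 FPKM in Ad-Dyrk1b livers and 33.0 ± 1.58 FPKM in Ad-EGFP livers (mean ± SD over 3 libraries each). Ccnd1 stood at 5.26 ± 1.08 FPKM in Ad-Dyrk1b livers and 8.25 ± 0.591 FPKM in Ad-EGFP livers (mean ± SD over 3 libraries each). The ratio of Ccnd3 to Ccnd1 FPKM was 7.42, 7.72 and 11.3 in Ad-Dyrk1b livers, against 4.15, 4.05 and 3.83 in Ad-EGFP livers, without overlap. Both loci overlap a coding gene on the other strand (LTO1 for Ccnd1 and Bysl for Ccnd3), and the sources used here do not name the strand setting of the counting. LTO1 had a log2 fold change of -0.09 ± 0.14 and Bysl one of 0.22 ± 0.14, and neither passed the test (edgeR, adjusted p = 0.73 and 0.346).

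Ccnd2 (cyclin D2), the least abundant D cyclin per length, at 1.53 FPKM over the 6 libraries, had 12.1, 8.77 and 9.23 CPM in Ad-Dyrk1b livers, against 6.93, 9.95 and 7.83 CPM in Ad-EGFP livers, and the groups overlapped. Cdk6, a partner kinase of the D cyclins, had 19.4, 16.7 and 17.9 CPM in Ad-Dyrk1b livers, against 13.8, 14.7 and 12.1 CPM in Ad-EGFP livers. Its groups did not overlap, but its log2 fold change of 0.41 ± 0.14 missed the threshold (edgeR, adjusted p = 0.0655). Cdk4, the other partner, had 71.8, 60.1 and 74.3 CPM in Ad-Dyrk1b livers, against 73.6, 75.6 and 91.0 CPM in Ad-EGFP livers (-0.22 ± 0.12, edgeR adjusted p = 0.246), and the groups overlapped narrowly. Ccne1 (cyclin E1) had 31.4, 27.6 and 31.0 CPM in Ad-Dyrk1b livers, against 29.2, 26.4 and 33.0 CPM in Ad-EGFP livers, with overlapping groups and a log2 fold change of 0.02 ± 0.12, whose sign turned in 5 of the 15 alternative settings. Ccne2 and Cdk2 had log2 fold changes of -0.34 ± 0.15 and -0.17 ± 0.11 and were not called. Over the 9 G1 genes 1 rose, beside 7.36% of all tested genes, and 1 fell (11.1%), beside 4.81%. Each of these shares rests on 1 gene. The median log2 fold change of the 9 was -0.17.

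Among inhibitors of the cyclin-dependent kinases, Cdkn1c rose and Cdkn1a fell, while Cdkn1b was not called. Cdkn1b (p27), which is one of the 54 genes, had 42.4, 42.5 and 39.8 CPM in Ad-Dyrk1b livers, against 56.0, 55.4 and 43.2 CPM in Ad-EGFP livers. Its groups did not overlap, while its log2 fold change of -0.31 ± 0.12 missed the threshold (edgeR, adjusted p = 0.103, and 0.0392 to 0.3 with 1 library left out, the lowest without Ad-EGFP replicate 3). A separate list held 6 further inhibitors, of which 4 had enough counts to test. Cdkn1c (p57), an imprinted member of the same family, had 57.1, 52.9 and 48.8 CPM in Ad-Dyrk1b livers, against 25.0, 18.8 and 18.7 CPM in Ad-EGFP livers. Its level rose by 1.35 ± 0.13 on the log2 scale (edgeR, adjusted p = 5.52e-05). Cdkn1a (p21), the best known target of p53, had 147, 158 and 145 CPM in Ad-Dyrk1b livers, against 230.2, 253 and 273 CPM in Ad-EGFP livers. It fell by 0.75 ± 0.11 on the log2 scale (edgeR, adjusted p = 0.000931). For both genes the groups lay far apart, and both were called in all 15 alternative settings. The ratio of Cdkn1c to Cdkn1a FPKM was 0.462, 0.412 and 0.415 in Ad-Dyrk1b livers, against 0.123, 0.0852 and 0.0766 in Ad-EGFP livers, so that Cdkn1a was the more abundant RNA in every library. Cdkn2c and Cdkn2d, of the INK4 family, had log2 fold changes of -0.04 ± 0.14 and 0.04 ± 0.24 and were not called. Cdkn2a and Cdkn2b, the other INK4 genes, had 1 to 10 counts per library and were not tested.

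**Figure D2:**
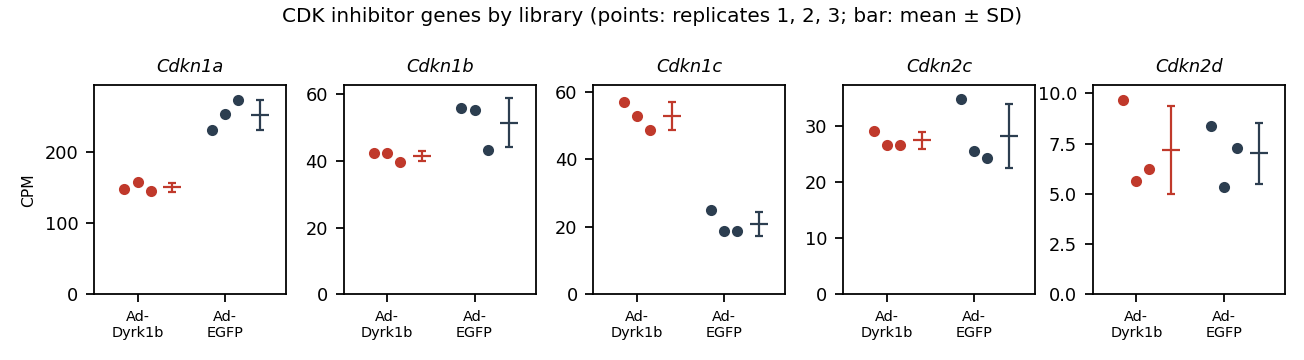
CPM of 5 genes of CDK inhibitors in each library (points), with the mean of each group (short line) and its SD (error bar); Ad-Dyrk1b on the left and Ad-EGFP on the right of each panel, each vertical axis starting at 0. Cdkn1c lies at 48.8 to 57.1 CPM in Ad-Dyrk1b livers, against 18.7 to 25.0 CPM in Ad-EGFP livers, and Cdkn1a at 145 to 158 CPM, against 230.2 to 273 CPM.

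The pocket protein genes Rb1 and Rbl1 fell, and the 3 E2F genes among the 54 did not pass the test. Rbl1 (p107, a pocket protein of cycling cells) had 15.6, 16.0 and 15.7 CPM in Ad-Dyrk1b livers, against 25.6, 21.2 and 20.3 CPM in Ad-EGFP livers. Its log2 fold change was -0.50 ± 0.13 (edgeR, adjusted p = 0.025). The Ad-Dyrk1b values were close together and below all Ad-EGFP values. Rb1, the retinoblastoma gene, had 12.4, 11.9 and 12.6 CPM in Ad-Dyrk1b livers, against 21.5, 15.7 and 15.7 CPM in Ad-EGFP livers, and its log2 fold change was -0.52 ± 0.15 (edgeR, adjusted p = 0.0467). Ad-EGFP replicate 1 was the highest library for both genes. With 1 library left out, Rbl1 stayed called only without Ad-EGFP replicate 2 or 3 (adjusted p 0.0356 to 0.105 over the 6 fits) and Rb1 only without Ad-EGFP replicate 2 (0.0465 to 0.192). Rb1 was also not called by limma-voom, in the fits on FPKM or without robust estimation (up to 0.0604). Rb1 also overlaps Rcbtb2 and Lpar6 on the other strand. Lpar6 rose by 0.42 ± 0.11 on the log2 scale (edgeR, adjusted p = 0.0309), opposite in sign to Rb1, and Rcbtb2, with 0.22 ± 0.10, was not called (adjusted p = 0.17). E2f1, an activator of replication genes, had 9.87, 9.25 and 11.7 CPM in Ad-Dyrk1b livers, against 8.60, 13.6 and 13.0 CPM in Ad-EGFP livers (-0.19 ± 0.19). E2f8, a repressor of the family that is known for its part in hepatocyte polyploidy, had 23.2, 27.9 and 25.7 CPM in Ad-Dyrk1b livers, against 28.0, 34.6 and 19.9 CPM in Ad-EGFP livers (-0.10 ± 0.18). The groups overlapped for both, and E2f2 (0.16 ± 0.28) was not called either. E2f7, the close relative of E2f8, belonged to a separate list of 13 further E2F, pocket protein and MuvB genes and was the 1 gene of it that was called. It had 4.83, 3.74 and 4.12 CPM in Ad-Dyrk1b livers, against 8.60, 9.13 and 5.72 CPM in Ad-EGFP livers, a fall of 0.88 ± 0.22 on the log2 scale (edgeR, adjusted p = 0.0233). Without replicate 2 or 3 of Ad-Dyrk1b or replicate 1 or 2 of Ad-EGFP it was not called (0.0153 to 0.0833 over the 6 fits), nor in the fits on FPKM.

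Of the 14 licensing and helicase genes, 5 fell (35.7%, beside 4.81% of all tested genes) and none rose. All 5 encode subunits of the MCM ring or the GINS complex, which account for 6 and 4 of the 14 genes. Mcm5 (chr8:75109569-75128439), a subunit of the ring, had 22.3, 19.5 and 22.1 CPM in Ad-Dyrk1b livers, against 31.3, 31.6 and 34.8 CPM in Ad-EGFP livers. It fell by 0.61 ± 0.11 on the log2 scale (edgeR, adjusted p = 0.00467, and 0.0108 to 0.0258 with 1 library left out). The groups lay clear of each other. Mcm7 (chr5:138164583-138172422) had 26.4, 27.3 and 27.2 CPM in Ad-Dyrk1b livers, against 36.4, 37.4 and 40.2 CPM in Ad-EGFP livers. Its log2 fold change was -0.49 ± 0.10 (edgeR, adjusted p = 0.00897, and 0.0208 to 0.0392 with 1 library left out). The Ad-Dyrk1b values were close together. Its gene body overlaps Cops6 and Ap4m1 on the other strand, neither of which was called. Mcm4, the third of the 6 subunits to fall, had 27.3, 25.6 and 32.3 CPM in Ad-Dyrk1b livers, against 38.9, 36.6 and 37.4 CPM in Ad-EGFP livers (-0.41 ± 0.12, edgeR adjusted p = 0.0375). It stayed called without Ad-Dyrk1b replicate 3 (adjusted p = 0.0204) but not without any 1 of the other 5 libraries (up to 0.131).

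The other MCM subunits did not pass the test. Mcm2 had 32.3, 34.9 and 35.0 CPM in Ad-Dyrk1b livers, against 38.7, 39.3 and 39.3 CPM in Ad-EGFP livers, without overlap and with a log2 fold change of -0.20 ± 0.10. Mcm3 had a log2 fold change of -0.21 ± 0.12. Mcm6 had 107, 113 and 145 CPM in Ad-Dyrk1b livers, against 101, 118 and 124 CPM in Ad-EGFP livers, with overlapping groups and a log2 fold change of 0.09 ± 0.13, which became -0.05 without Ad-Dyrk1b replicate 3. Mcm6 was also the most abundant MCM RNA per length, at 40.1 FPKM over the 6 libraries, beside 9.33 FPKM for the least abundant subunit. The MCM proteins act as a ring with 1 copy of each subunit, and over the 6 genes the log2 fold changes ran from -0.61 to 0.09 with a median of -0.31.

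In the GINS complex, which joins the ring to form the active helicase, 2 of 4 genes fell. Gins4 had 15.3, 14.9 and 15.9 CPM in Ad-Dyrk1b livers, against 22.2, 19.4 and 21.7 CPM in Ad-EGFP livers (-0.46 ± 0.12, edgeR adjusted p = 0.0298). Gins1 had 4.01, 3.85 and 4.36 CPM in Ad-Dyrk1b livers, against 8.27, 4.98 and 7.17 CPM in Ad-EGFP livers. Its log2 fold change of -0.74 ± 0.22 was the furthest below 0 of the 54 genes, with adjusted p = 0.0499 (edgeR), and Ad-EGFP replicate 2 lay nearest to the Ad-Dyrk1b libraries. With 1 library left out both stayed called only without Ad-EGFP replicate 2, with adjusted p of 0.0345 to 0.0967 for Gins4 and of 0.0226 to 0.176 for Gins1 over the 6 fits. Gins1 was also not called by limma-voom, with RLE size factors, with a minimum mean of 50 counts or without robust estimation (up to 0.0675). Gins2 and Gins3 had log2 fold changes of -0.25 ± 0.15 and -0.36 ± 0.31 and were not called. The loading factor Cdc6 had 2.21, 2.94 and 2.03 CPM in Ad-Dyrk1b livers, against 2.11, 2.24 and 2.28 CPM in Ad-EGFP livers, with overlapping groups, and was the least abundant of the 54 genes per length, at 0.767 FPKM. Cdt1, its partner in loading, and Mcm10 and Cdc45, which act when the helicase is switched on, had log2 fold changes of 0.10 ± 0.13, -0.13 ± 0.15 and -0.23 ± 0.15, and none was called.

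At the replication fork 4 of 9 genes fell and none rose, and the median log2 fold change was -0.34. Without Ad-Dyrk1b replicate 3 the median was -0.39, and 0 of the 9 were called lower. All 3 of the small subunits of replication factor C among the 54 genes fell. This clamp loader opens the PCNA ring and sets it on DNA. Its large subunit Rfc1 and its remaining small subunit Rfc2 are outside the 54 genes. They had log2 fold changes of -0.31 ± 0.12 and -0.09 ± 0.13 and were not called. Rfc4 (chr16:23113943-23127737) had 6.07, 7.01 and 5.40 CPM in Ad-Dyrk1b livers, against 10.3, 10.6 and 9.67 CPM in Ad-EGFP livers (-0.73 ± 0.17, edgeR adjusted p = 0.0165). Rfc3 had 11.4, 9.41 and 9.12 CPM in Ad-Dyrk1b livers, against 14.2, 13.7 and 17.4 CPM in Ad-EGFP livers (-0.60 ± 0.16, edgeR adjusted p = 0.0286). Rfc5 had 17.3, 13.7 and 12.4 CPM in Ad-Dyrk1b livers, against 22.0, 19.3 and 21.4 CPM in Ad-EGFP livers (-0.53 ± 0.15, edgeR adjusted p = 0.0346). The groups did not overlap for any of the 3. Rfc4 was not called without replicate 1 or 3 of Ad-Dyrk1b (adjusted p 0.0261 to 0.052 over the 6 fits) and Rfc3 was not called without replicate 2 or 3 of Ad-Dyrk1b or replicate 3 of Ad-EGFP (0.0321 to 0.108). For Rfc5 the same held without replicate 2 or 3 of Ad-Dyrk1b or replicate 1 or 3 of Ad-EGFP (0.0173 to 0.111), and in the fits on FPKM. Rfc4 shares 194 bases with Eif4a2 and Rfc5 shares 499 bases with Wsb2, both on the other strand and neither called.

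Pole, the catalytic subunit of the leading strand polymerase, had 9.36, 9.68 and 9.18 CPM in Ad-Dyrk1b livers, against 16.9, 13.7 and 11.3 CPM in Ad-EGFP livers (-0.57 ± 0.17, edgeR adjusted p = 0.0456). Its Ad-Dyrk1b values were close together and below all Ad-EGFP values, which spread more widely, and it stayed called only without Ad-EGFP replicate 3 (0.0309 to 0.184 over the 6 fits). It was also not called by limma-voom or without robust estimation. Pold1, the catalytic subunit of the lagging strand polymerase, had a log2 fold change of 0.17 ± 0.18 and was not called. Pcna, the sliding clamp, had 91.2, 89.7 and 93.9 CPM in Ad-Dyrk1b livers, against 110.0, 98.7 and 108 CPM in Ad-EGFP livers, without overlap, and a log2 fold change of -0.20 ± 0.10 that missed the threshold (edgeR, adjusted p = 0.188). Lig1, the ligase that seals Okazaki fragments, had 57.6, 49.3 and 63.1 CPM in Ad-Dyrk1b livers, against 49.7, 55.3 and 54.4 CPM in Ad-EGFP livers (0.09 ± 0.11), with overlapping groups. Fen1, the nuclease of the same step, had a log2 fold change of 0.11 ± 0.13 and Prim1, the primase, one of -0.34 ± 0.13, and neither was called.

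**Figure D3:**
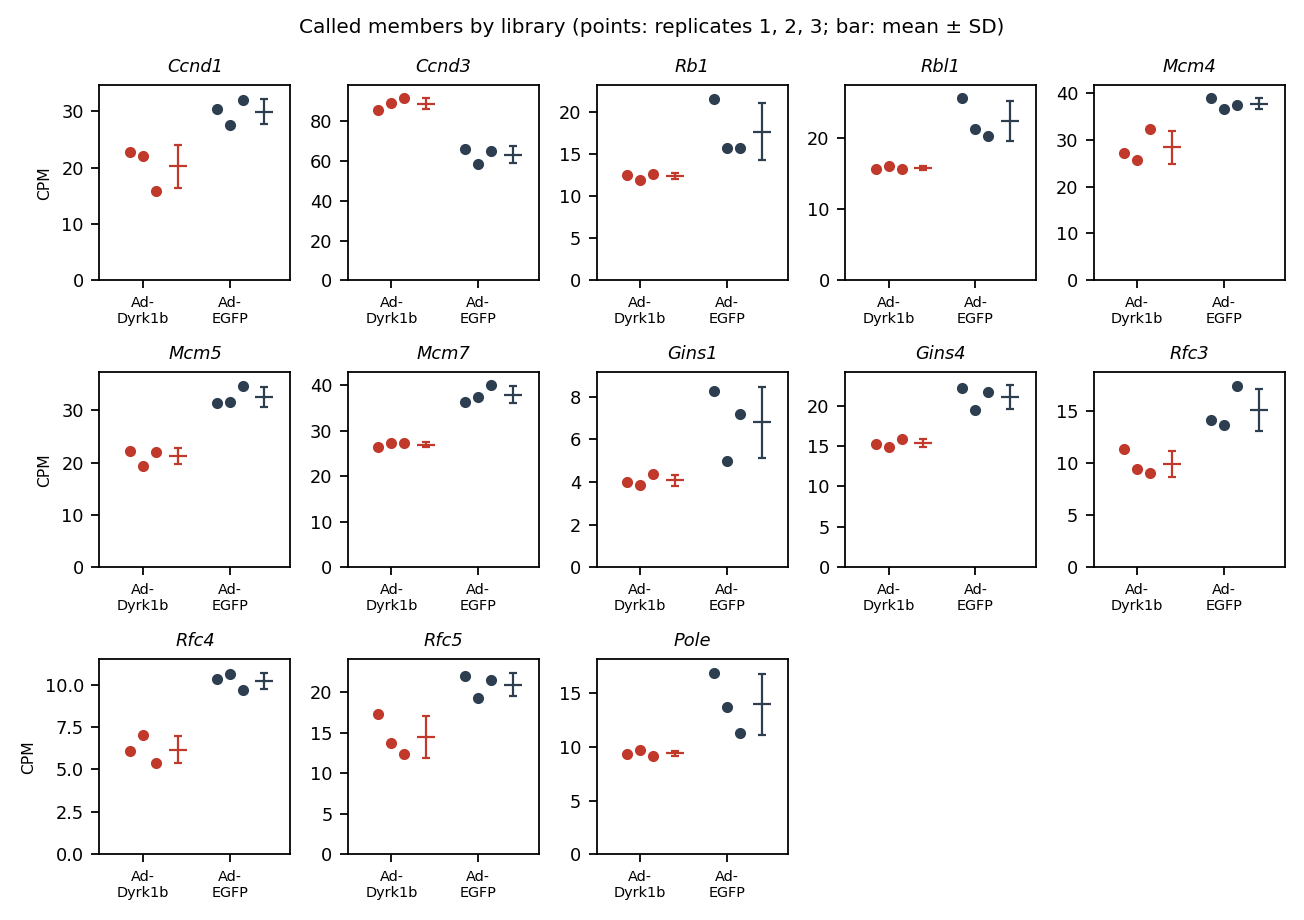
CPM of the 13 called genes in each library (points), with the mean of each group (short line) and its SD (error bar); Ad-Dyrk1b on the left and Ad-EGFP on the right of each panel, each vertical axis starting at 0. Ccnd3 lies higher in Ad-Dyrk1b livers and the other 12 genes lower, and in none of the 13 panels do the groups overlap.

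Taking licensing, helicase and fork genes as 1 group of 23, 9 fell (39.1%, beside 4.81% of all tested genes), and in 12 of the 23 (52.2%) every Ad-Dyrk1b library lay below every Ad-EGFP library, beside 16.7%. Without Ad-Dyrk1b replicate 3, 3 licensing and helicase genes and 0 fork genes were called lower. A separate list of 45 further replication genes, such as the origin recognition complex and RPA, gave 2 that fell (4.44%), close to the share of all tested genes, with a median log2 fold change of -0.19 and 34 of 45 below 0. Those 2 were Prim2, the large subunit of primase, and Chaf1a, a subunit of the histone chaperone of the fork. Prim2 had 5.35, 5.56 and 5.17 CPM in Ad-Dyrk1b livers, against 8.76, 8.97 and 7.55 CPM in Ad-EGFP livers (-0.65 ± 0.18, edgeR adjusted p = 0.03). Chaf1a had 14.8, 14.1 and 13.4 CPM in Ad-Dyrk1b livers, against 21.0, 18.2 and 22.8 CPM in Ad-EGFP livers (-0.55 ± 0.13, edgeR adjusted p = 0.018). The groups did not overlap for either. Prim2 stayed called only without Ad-EGFP replicate 3 (0.0457 to 0.085 over the 6 left-out fits), and Chaf1a was lost without replicate 2 or 3 of Ad-Dyrk1b or replicate 3 of Ad-EGFP (0.0161 to 0.0704).

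Promoter windows from RefSeq (assembly GRCm38.p6, 250 bases before to 50 after a gene's start) were at hand for 43 of the 54 genes. They were searched on both strands for the E2F motif, spelled TTTCCCGC, TTTCGCGC, TTTGCCGC or TTTGGCGC with overlapping matches joined, and for the CHR motif of mitotic promoters, spelled TTTGAA. The E2F motif was in the windows of 10 of 18 licensing, helicase and fork genes (55.6%) and of 1 of 12 mitotic genes (8.33%), beside 4.48% of the 10491 tested genes with a window. The CHR motif showed the opposite order, with 4 of 18 (22.2%) and 8 of 12 (66.7%), beside 14.9%. Of the 36 genes with a window that were not called, 10 held the E2F motif (27.8%) and 14 the CHR motif (38.9%). These 36 include the 12 mitotic genes with a window, so they differ in role from the genes that fell. Among licensing, helicase and fork genes, Cdc6, Cdt1, Gins3, Mcm3, Mcm6, Lig1 and Pold1 held the E2F motif and were not called. In the same roles Rfc4 and Rfc5 fell without it. Among the 12 genes that fell, 4 of the 6 with a window held the E2F motif and none the CHR motif, a difference that was not tested. Parts of those 4 windows are shown for the place of the motif, 5′ to 3′ on the gene's strand with the motif in capitals. They are followed by that of Cdk1, which was chosen after its values were seen to show the motifs of both kinds in 1 promoter.
Mcm5, chr8:75109316-75109407, plus strand: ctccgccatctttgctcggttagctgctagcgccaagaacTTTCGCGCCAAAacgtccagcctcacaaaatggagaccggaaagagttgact
Mcm7, chr5:138172001-138172088, minus strand: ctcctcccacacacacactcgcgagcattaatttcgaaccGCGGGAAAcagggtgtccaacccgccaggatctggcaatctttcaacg
Rbl1, chr2:157204535-157204592, minus strand: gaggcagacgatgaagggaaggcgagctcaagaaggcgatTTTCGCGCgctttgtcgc
Rfc3, chr5:151651209-151651258, minus strand: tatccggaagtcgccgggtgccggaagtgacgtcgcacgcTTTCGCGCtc
Cdk1, chr10:69352913-69353083, minus strand: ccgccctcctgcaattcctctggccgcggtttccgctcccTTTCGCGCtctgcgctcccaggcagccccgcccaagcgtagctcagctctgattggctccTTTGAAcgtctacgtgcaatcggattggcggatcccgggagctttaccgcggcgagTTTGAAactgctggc

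Counted from the RefSeq start, the first capital lies at -153 in Mcm5, where matches on both strands overlap, at -165 in Mcm7, at -18 in Rbl1 and at -10 in Rfc3. In Mcm7 the motif shown reads on the other strand. A further match lies at 17 in Mcm7 and at 1 in Rfc3, outside the stretches shown. The stretch of Cdk1 holds an E2F motif at -131 and CHR motifs at -71 and -15. A match describes letters in these windows and not a bound site.

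The 3 genes of deoxynucleotide synthesis were not called, although their log2 fold changes were below 0. Rrm1, the large subunit of ribonucleotide reductase, had 96.8, 101 and 110.1 CPM in Ad-Dyrk1b livers, against 123, 116 and 125 CPM in Ad-EGFP livers, without overlap (-0.24 ± 0.10 on the log2 scale, edgeR adjusted p = 0.131, with an unadjusted p of 0.03). Rrm2, its regulated small subunit, had 132, 132 and 197 CPM in Ad-Dyrk1b livers, against 162, 167 and 143 CPM in Ad-EGFP livers (-0.03 ± 0.15). Its Ad-Dyrk1b replicate 3 was the highest of the 6 libraries, and without replicate 1 or 2 of Ad-Dyrk1b or replicate 2 of Ad-EGFP the sign turned. Tyms, thymidylate synthase, had a log2 fold change of -0.19 ± 0.11. Rrm2 was the most abundant of the 54 genes per length, at 71.2 FPKM over the 6 libraries, followed by Cdk1 at 66.5 and Pcna at 65.1 FPKM.

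The 14 genes of G2 and mitosis all had log2 fold changes below 0, with the lowest median of any of the 6 roles, and edgeR called none of them. Their median was -0.40, with a range of -0.52 to -0.16, and 4 had an unadjusted p under 0.05. DESeq2 called 1 of them, Cdk1, and limma-voom called none. Cdk1 (chr10:69335146-69352938), the kinase that starts mitosis, had 90.4, 76.2 and 57.03 CPM in Ad-Dyrk1b livers, against 134, 94.7 and 91.4 CPM in Ad-EGFP livers (-0.52 ± 0.19, edgeR adjusted p = 0.12). Mad2l1, of the spindle checkpoint, had 36.1, 37.9 and 24.6 CPM in Ad-Dyrk1b livers, against 57.4, 41.9 and 40.5 CPM in Ad-EGFP livers (-0.50 ± 0.18, edgeR adjusted p = 0.103). In these 2 genes (14.3% of the 14) every Ad-Dyrk1b library lay below every Ad-EGFP library, by a narrow margin, beside 16.7% of all tested genes. In the other 12 the groups overlapped.

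Ccnb1, cyclin B1, had 58.6, 51.9 and 34.0 CPM in Ad-Dyrk1b livers, against 86.2, 61.4 and 58.0 CPM in Ad-EGFP livers (-0.51 ± 0.22). Top2a, the topoisomerase that untangles sister chromatids, had 76.4, 65.9 and 45.7 CPM in Ad-Dyrk1b livers, against 89.3, 82.6 and 64.2 CPM in Ad-EGFP livers (-0.33 ± 0.19). Birc5 (survivin), of the chromosomal passenger complex, had 43.3, 27.6 and 21.1 CPM in Ad-Dyrk1b livers, against 46.7, 35.6 and 40.1 CPM in Ad-EGFP livers (-0.41 ± 0.25), and passed the edgeR test in 1 of the 6 left-out fits, that without Ad-Dyrk1b replicate 1 (adjusted p = 0.016). Mki67, the gene of the Ki-67 antigen, had 116, 109 and 76.8 CPM in Ad-Dyrk1b livers, against 136, 113 and 88.6 CPM in Ad-EGFP livers, with a log2 fold change of -0.16 ± 0.19 that was 0.00 without Ad-Dyrk1b replicate 3 or without Ad-EGFP replicate 1. Among the other mitotic members, Ccnb2 (cyclin B2) had a log2 fold change of -0.50 ± 0.24, and Ccna2 (cyclin A2), which acts from S phase on, one of -0.21 ± 0.19. Bub1b and Bub1, of the spindle checkpoint, had -0.45 ± 0.18 and -0.40 ± 0.25 on the same scale, and Cdc20, the activator of the anaphase-promoting complex, had -0.33 ± 0.28. The mitotic kinase genes Aurka, Aurkb and Plk1 had -0.42 ± 0.26, -0.38 ± 0.15 and -0.31 ± 0.27. None of these 8 was called, and their groups overlapped. In Ccnb1, Top2a, Birc5 and Mki67 replicate 1 was the highest library of its group, in Ad-Dyrk1b and in Ad-EGFP livers.

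Ranks of the libraries were shared across the whole role. All 14 genes had their lowest value of the 6 libraries in Ad-Dyrk1b replicate 3 and their highest in Ad-EGFP replicate 1. Within the Ad-Dyrk1b group, replicate 1 was the highest library for 12 of the 14 genes. A separate list of 44 further mitosis genes, 43 of them tested, behaved likewise, with the lowest value in Ad-Dyrk1b replicate 3 for 38 and the highest in Ad-EGFP replicate 1 for 35. The median within-group SD of log2 CPM over the 14 genes was 0.402 in Ad-Dyrk1b livers and 0.292 in Ad-EGFP livers. Over the 14 licensing and helicase genes it was 0.188 in Ad-Dyrk1b livers and 0.0838 in Ad-EGFP livers. The median of the 14 mitotic log2 fold changes was -0.21 without Ad-Dyrk1b replicate 3, -0.22 without Ad-EGFP replicate 1 and -0.57 without Ad-Dyrk1b replicate 1, against -0.40 with all 6 libraries. In each of the fits without Ad-Dyrk1b replicate 3 or replicate 1 of Ad-EGFP, 13 mitotic genes were below 0. The median of the licensing and helicase genes was -0.24 with all 6 libraries, -0.25 without Ad-Dyrk1b replicate 3, and between -0.36 (without Ad-Dyrk1b replicate 1) and -0.19 (without replicate 2 of Ad-Dyrk1b or replicate 1 of Ad-EGFP) over the left-out fits.

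**Figure D4:**
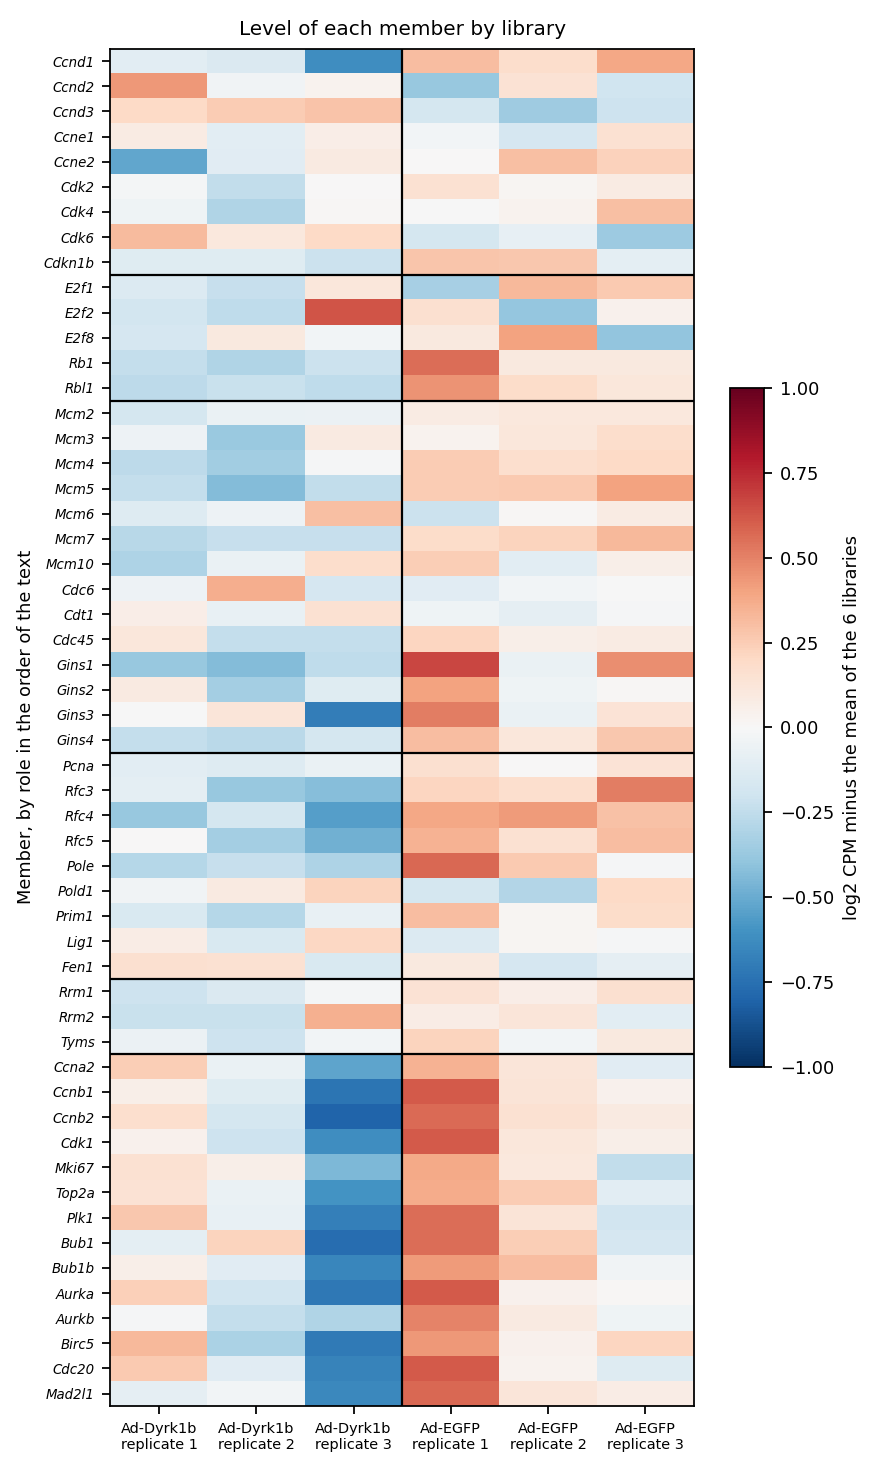
Log2 CPM of each of the 54 genes (rows, by role) in each of the 6 libraries (columns, Ad-Dyrk1b on the left), with the mean of the gene over the 6 libraries subtracted. The mitotic rows are lowest in Ad-Dyrk1b replicate 3 and highest in Ad-EGFP replicate 1.

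**Figure D5:**
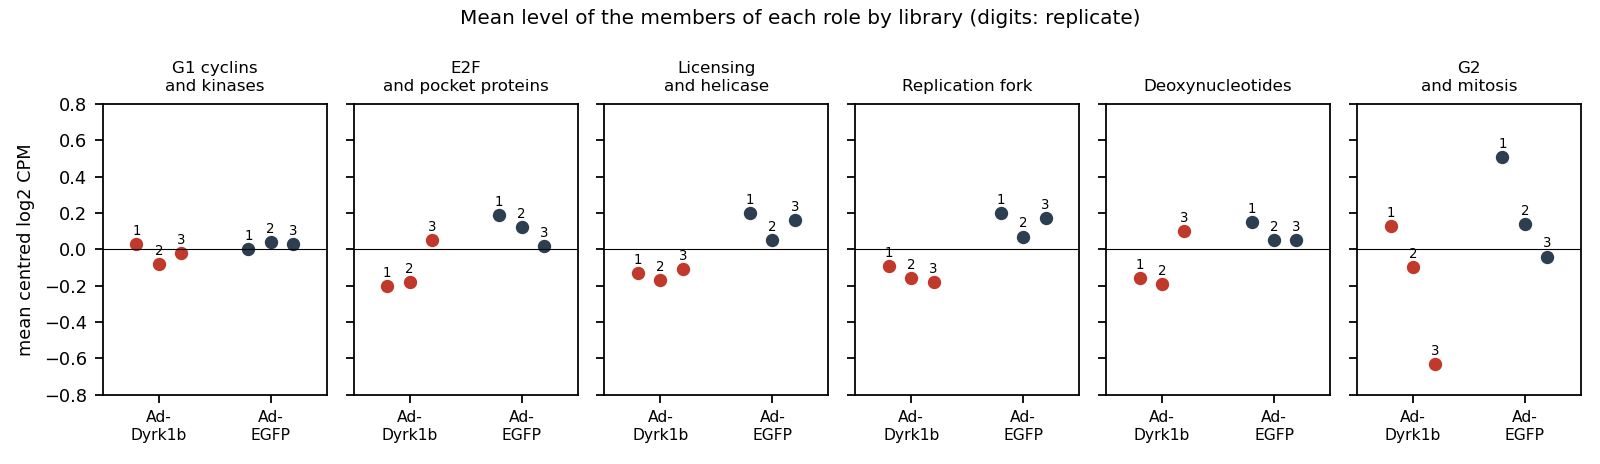
Mean over the genes of each role of log2 CPM minus the gene's mean over the 6 libraries (vertical axis), for each library (points, numbered by replicate), with Ad-Dyrk1b on the left of each panel. For licensing the Ad-Dyrk1b libraries lie at -0.17 to -0.11, against 0.05 to 0.20 in Ad-EGFP, and for mitosis at -0.63 to 0.13, against -0.04 to 0.51.

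Averaged over a role, the licensing and helicase genes lay at -0.13, -0.17 and -0.11 in Ad-Dyrk1b libraries, against 0.20, 0.05 and 0.16 in Ad-EGFP libraries, on the log2 scale around each gene's mean. The fork genes lay at -0.09, -0.16 and -0.18 in Ad-Dyrk1b libraries, against 0.20, 0.07 and 0.17 in Ad-EGFP libraries. For both roles the groups did not overlap. The mitotic genes lay at 0.13, -0.10 and -0.63 in Ad-Dyrk1b libraries, against 0.51, 0.14 and -0.04 in Ad-EGFP libraries, and there the groups overlapped, also when Ad-Dyrk1b replicate 3 was set aside. In both groups replicate 1 lay highest and replicate 3 lowest. Each Ad-Dyrk1b library lay below the Ad-EGFP library of its own number, though no label pairs them. The G1 genes, whose members moved in both directions, lay between -0.08 and 0.04 in every library. These means describe the chosen genes and carry no test.

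In the further mitosis list 2 of 43 tested genes fell (4.65%, close to the 4.81% of all tested genes), with 38 of 43 below 0 and a median of -0.39. Without Ad-Dyrk1b replicate 3 the median of the list was -0.22 with 31 of 43 below 0, without Ad-EGFP replicate 1 it was -0.23 with 35 below 0, and without Ad-Dyrk1b replicate 1 it was -0.57. They were Bub3, of the spindle checkpoint, and Spc25, of the NDC80 kinetochore complex. Bub3 had 53.8, 47.1 and 43.3 CPM in Ad-Dyrk1b livers, against 77.4, 60.8 and 67.1 CPM in Ad-EGFP livers (-0.51 ± 0.12, edgeR adjusted p = 0.0166), and was not called without replicate 2 or 3 of Ad-Dyrk1b or replicate 1 of Ad-EGFP (0.0133 to 0.0749 over the 6 fits). Its whole gene body lies within that of Fgfr2 on the other strand, which rose by 0.58 ± 0.15 on the log2 scale (edgeR, adjusted p = 0.028). Spc25 had 46.3, 41.9 and 31.6 CPM in Ad-Dyrk1b livers, against 57.7, 54.7 and 54.7 CPM in Ad-EGFP livers (-0.48 ± 0.13, edgeR adjusted p = 0.032), and stayed called only without Ad-Dyrk1b replicate 1 (0.0205 to 0.0967). Of 9 further G1 regulators, Ccng1, a p53 target like Cdkn1a, was the 1 that was called. It had 139, 168 and 141 CPM in Ad-Dyrk1b livers, against 206, 216 and 178 CPM in Ad-EGFP livers (-0.42 ± 0.12, edgeR adjusted p = 0.0346), and was lost without replicate 1 or 3 of Ad-Dyrk1b or replicate 1 or 2 of Ad-EGFP (0.0307 to 0.108).

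Markers of cell types other than hepatocytes were examined beside these genes. The 9 erythroid markers, of a lineage that can divide in liver, summed to 1394, 1625 and 5757 FPKM in Ad-Dyrk1b livers, against 824, 1122 and 1375 FPKM in Ad-EGFP livers. Their sum was highest in Ad-Dyrk1b replicate 3, the library in which all 14 mitotic genes were lowest, and none of the 9 passed the test, with a median log2 fold change of 1.44. The T and NK cell markers summed to 65.1, 39.9 and 51.9 FPKM in Ad-Dyrk1b livers, against 26.6, 37.5 and 31.6 FPKM in Ad-EGFP livers, and 2 of the 13 tested (of 15) rose, where 7.36% of all tested genes rose. The 11 myeloid markers summed to 306, 235 and 313 FPKM in Ad-Dyrk1b livers, against 238, 256 and 311 FPKM in Ad-EGFP livers. Of the 10 tested, 2 rose, beside the same 7.36%, and the median log2 fold change was 0.28. The cholangiocyte markers summed to 301, 272 and 219 FPKM in Ad-Dyrk1b livers, against 138, 172 and 163 FPKM in Ad-EGFP livers. Of these 6 markers 1, Spp1, rose, beside the same 7.36%. Spp1 made up most of that sum, with a mean of 257 FPKM in Ad-Dyrk1b livers and 152 FPKM in Ad-EGFP livers. Krt19, Krt7, Epcam, Sox9 and Cftr stood at 2.84 FPKM or less over the 6 libraries, and none of them was called. Of the tested B and plasma cell (4), endothelial (7) and stellate cell (6) markers none was called, with median log2 fold changes of 0.43, 0.38 and -0.03. No marker of these lists was at 0 in all 6 libraries. Their part in the levels of the cell cycle genes was not tested.

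In the authors' deposited table, whose adjusted p-values came from their own analysis, 11 of the 54 genes were lower and 1 higher at an adjusted p under 0.05. That was 20.4% and 1.85% of the 54, beside 4.6% and 7.75% of the 13201 genes tested here. Of the 13 genes called here, 11 were among them, and Rb1 and Gins1 missed in the authors' deposited table (adjusted p = 0.0508 and 0.0512). The authors' deposited table had 1 further gene of the 54, the mitotic Cdk1, as lower (adjusted p = 0.0463).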

How the data were processed

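The 6 libraries were mRNA-seq of liver, 3 per group, with groups taken from the treatment label. The deposited table held raw whole-number counts per gene, per the file headers. It also held the authors' FPKM, a log2 ratio of group means in FPKM, and the authors' p-value with its adjusted value. The submitters' processing notes name mm10 and DESeq2; the sources used here name no aligner, counter or strand setting. Reads of overlapping genes may therefore be shared, which touches 16 of the 54 genes.

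Of 22274 genes, 13201 passed the filterByExpr function of edgeR (minimum count 10, minimum total 15). Groups were compared with edgeR 4.0.16 (R 4.3.3) by TMM normalization and a robust two-sided quasi-likelihood test on all 6 libraries, with Benjamini-Hochberg adjustment. The scripts were tested on simulated data. Replicates differed by more than sampling noise (18 to 33.8 chi-square per gene), so each library counted once. FPKM was used for levels between genes; for 7 of the 54 genes the ratio of FPKM to CPM varied by over 1.2-fold between libraries. Coordinates came from GENCODE M21 and promoters from RefSeq.

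The genes, lists and tests were chosen with earlier results of these data known. Genes named in full were the called ones, the 2 of each role with the highest FPKM and 12 fixed names; others of the 54 are named with their log2 fold change, and Ccnd2, Cdk6, Mad2l1 and Ccnb1 were given per library after their values were seen. Alternatives were DESeq2 1.42.0, limma-voom and limma-trend on log2(FPKM + 1) and log2(FPKM + 0.1) (limma 3.58.1), RLE size factors, other count filters, no robust estimation, the replicate number as a block, and leaving out each library.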

Additional observations from a re-analysis of the deposited data

How the results depend on the processing

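Over all genes, 972 were called higher and 635 lower. The count of higher genes was 566 and 569 in the fits on log2(FPKM + 1) and log2(FPKM + 0.1), where 712 and 725 were lower; those fits change the unit, the scaling and the test together. With 1 library left out it was 612 to 800 higher and 294 to 461 lower. Of the 54 genes, 12 were called lower by edgeR, 13 by DESeq2, 9 by limma-voom and 3 to 10 with 1 library left out, and 1 was called higher throughout. By role, with 1 library left out, 0 to 1 G1 genes, 0 to 2 E2F and pocket protein genes, 2 to 4 licensing and helicase genes, 0 to 3 fork genes and 0 to 1 mitotic genes were lower. In the E2F and pocket protein role 1 gene was lower by limma-voom, on both FPKM scales and without robust estimation, against 2 by edgeR. DESeq2 called 1 mitotic gene and 12 of the other cell cycle genes lower, against 0 and 7 by edgeR, and the left-out fits called 2 to 8 of that list.

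The replicate numbers were not found to pair the libraries, since same-numbered libraries correlated in their deviations at 0.0245, 0.172 and 0.108. As a hint from the data, not the design, 5 of the 6 libraries correlated best with the library of their own number in the other group. With the replicate block 18 of the 54 genes were called lower, among them 7 mitotic genes (Ccnb1, Ccnb2, Cdk1, Top2a, Bub1b, Aurka and Mad2l1), and 23 of the other cell cycle genes.

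The sign of the log2 fold change turned for 7 genes that were not called. On the FPKM scales Ccne1 was at -0.0593 and -0.0628 and Cdc6 at -0.0243 and -0.0554. With 1 library left out, Ccne1 was between -0.0525 (without Ad-EGFP replicate 2) and 0.11, E2f2 between -0.177 (without Ad-Dyrk1b replicate 3) and 0.314, and E2f8 between -0.289 and 0.0974 (without Ad-EGFP replicate 2). Likewise Mcm6 was between -0.0523 (without Ad-Dyrk1b replicate 3) and 0.172, Cdc6 between -0.0571 (without Ad-Dyrk1b replicate 2) and 0.22, Rrm2 between -0.251 and 0.0643 (without Ad-Dyrk1b replicate 1), and Mki67 between -0.305 and 0.00462 (without Ad-Dyrk1b replicate 3). The left-out fits rest on 5 libraries, and the cause was not tested otherwise. Of the 13 called genes, 9 stayed called in every setting that kept all libraries. Depth limits the genes with the fewest counts, such as Cdc6.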
